A study of Homo sapiens with 9 samples.

Results

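The genes examined were 32 direct or widely used transcriptional targets of p53, among them GDF15, a secreted stress cytokine of the TGF-beta superfamily. They were set by a list of symbols with no threshold on measured values, drawn up with earlier results of these data known. Of the 32 genes, 31 stood among the 32906 listed genes and 29 were over the limit on low values and were tested; SPATA18 was not analysed here. RNA sequencing was done on cells labelled as Huh7, a human hepatocellular carcinoma line, collected 48 hours after transfection with a control siRNA (Scramble) or with siRNAs against KDM4C, a demethylase of histone H3 lysine 9 and lysine 36 (Si-KDM4C#1 and Si-KDM4C#2). Each of the 3 groups had 3 libraries, 9 in all, from cells of the same line in the same medium, and the siRNA was the difference between groups that the labels give. The question was how KDM4C depletion changed gene expression and whether the siRNAs did so alike. The labels number the libraries but do not say that they came from separate cultures, so the p-values measure the spread between these libraries, which may be technical.

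p53 is a transcription factor that binds a pair of adjoining repeats, the p53 response element, near the genes that it raises. Its targets stop the cell cycle, start cell death, repair DNA and adjust metabolism, and MDM2, itself a target, marks p53 for degradation, so that the response limits itself. Several targets, GDF15 among them, are also raised by the ATF4 stress response, which does not need p53.

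The p53 response element consensus was searched in RefSeq promoter windows (GRCh38.p14, 250 bases before to 50 after each start), as 2 repeats of 10 bases with at most 1 base between them, at most 3 mismatches over both, and the C and G of each core in place. The consensus reads the same on both strands, so a single search covers both, and no other motif was searched. The limit of 3 mismatches was set after the windows of these genes had been seen. A window was at hand for 26 of the 32 genes (39 windows), and 7 of the 26 held a match, which is a description and not a measured site. Of all 27305 genes with a window, 2.91% held such a match. The 7 matches are printed 5′ to 3′ on the strand of the gene, with the repeats in capitals, because they show how the element varies among genes whose RNA is described below.
DDB2: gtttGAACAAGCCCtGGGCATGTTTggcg
AEN: agccGGGCTTGCCCGGGCATGTGGgagc
FAS: tcctGGACAAGCCCTGACAAGCCAagcc
MDM2: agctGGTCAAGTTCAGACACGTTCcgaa
FDXR: gcccGGGCAGGAGCGGGCTTGCCCtgcg
GDF15: gcacAGCCATGCCCGGGCAAGAACtc
SESN1: gtctGGACAAGTCTCCACAAGTCAgaaa

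The DDB2 element, at chr11:47214979-47214999 on the plus strand, had 0 mismatches and lay from base 6 to base 26 after a RefSeq start. The AEN element (chr15:88621306-88621325, plus strand, bases -34 to -15 from the start), the FAS element (chr10:88991309-88991328, plus strand, bases -122 to -103) and the MDM2 element (chr12:68808923-68808942, plus strand, bases -94 to -75) had 2 mismatches each. The remaining elements had 3 mismatches each: FDXR on the minus strand (chr17:74872996-74873015, bases -21 to -2), GDF15 on the plus strand (chr19:18386186-18386205, bases 29 to 48) and SESN1 on the minus strand (chr6:109009018-109009037, bases -49 to -30).

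Library depth differed little between groups. The deposited FPKM values (fragments scaled to exon length and to library size) came out as whole fragments for 97.49% of the listed genes, with totals of 14597503 to 18058557 fragments per library. A count of 3 fragments, taken as the floor, stood for 0.166 to 0.206 FPKM in a gene of 1 kb. Of 12 hepatocyte markers, 9 were analysed and 0 reached 1 FPKM in any library; the highest value was 0.248 FPKM and the sum ran from 0.0483 to 0.389 FPKM, so the defining markers of the labelled cell type were near 0 and the identity of the line, which was not tested further, is in doubt. Of 5 epithelial markers, 4 were analysed. The keratins KRT8 and KRT18 reached 1 FPKM in at least 1 library, and KRT19 and CDH1 did not. The epithelial list sums were 330 to 353 FPKM with Scramble, 290 to 309 with Si-KDM4C#1 and 240 to 254 with Si-KDM4C#2. Of 5 mesenchymal markers, VIM, FN1, COL1A1 and CDH2 reached 1 FPKM and COL1A2 did not. The mesenchymal list sums were 75.6 to 94.7 FPKM over the libraries, while no blood marker passed 0.0696 FPKM. The part of these markers in the results below was not tested.

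Both siRNAs lowered their target. KDM4C stood at 4.88, 4.63 and 4.57 FPKM with Scramble, at 1.18, 1.10 and 1.13 with Si-KDM4C#1 and at 0.256, 0.349 and 0.256 with Si-KDM4C#2. Group means were 4.69 ± 0.167 (SD, n = 3), 1.14 ± 0.0395 and 0.287 ± 0.0535 FPKM, and the groups did not overlap. Differences are given below as log2 differences of log2(FPKM + 1) with their standard errors (SE), a scale that understates changes of low genes, with p-values from limma-trend adjusted by the Benjamini-Hochberg method over all 14363 genes tested. KDM4C fell by 1.41 with Si-KDM4C#1 (SE 0.0765, adjusted p = 2.65e-07) and by 2.15 with Si-KDM4C#2 (adjusted p = 5.45e-08).

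With Si-KDM4C#1, most of the tested p53 targets rose. Past an adjusted p of 0.05, 24 of the 29 tested genes rose, 4 fell (RRM2B, ZMAT3, SESN1 and TNFRSF10B) and 1 (DDB2) did not pass, where 31.7% of all genes tested rose and 33.9% fell. With a fold limit of 2 added, 8 rose (CDKN1A, GADD45A, BTG2, BBC3, PERP, CDIP1, FDXR and GDF15) and 2 fell (RRM2B and ZMAT3), against 4.04% and 4.83% of all genes. Their median log2 difference was 0.64, and that of all genes was -0.03. In bulk RNA, a change in the share of cells that express a gene and a change of its RNA per cell cannot be told apart, here and below.

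With Si-KDM4C#2, most of the p53 targets that changed fell. BTG2, PERP, PIDD1 and XPC were the 4 of the 29 that rose, while 13 fell and 12 did not pass, where 34.4% of all genes rose and 25.0% fell. Past the fold limit, PERP rose and 6 genes fell (CDKN1A, MDM2, RRM2B, SESN1, GDF15 and ZMAT3), against 2.6% and 2.3% of all genes. The median log2 difference was -0.13, beside 0.06 over all genes. These comparisons share the Scramble libraries, so their values are set side by side and not counted as separate evidence.

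**Figure D1:**
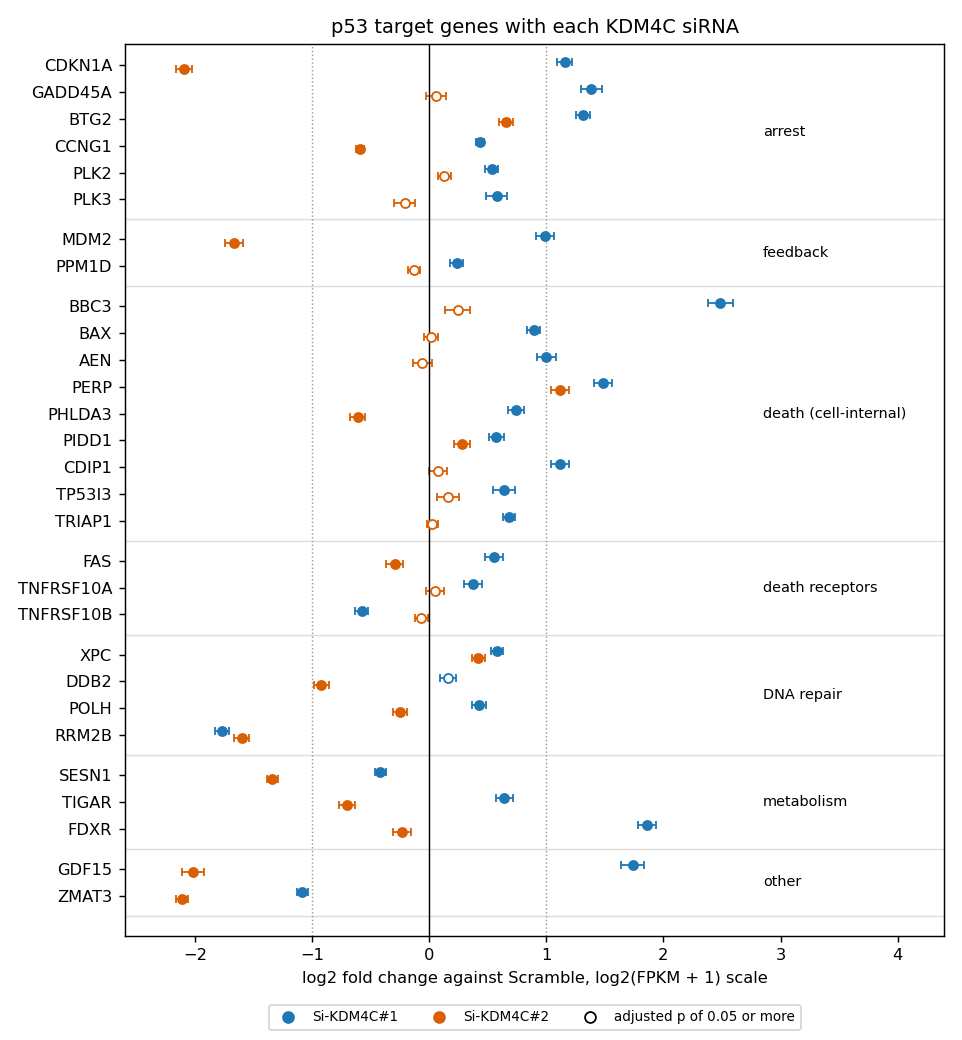
Log2 difference against Scramble on the log2(FPKM + 1) scale (x axis) of each of the 29 tested p53 targets (y axis, grouped by role), with bars of 1 SE, for Si-KDM4C#1 (blue) and Si-KDM4C#2 (orange). Open circles have an adjusted p of 0.05 or more and dotted lines mark the fold limit of 2; GDF15, CDKN1A and MDM2 lie right of zero with Si-KDM4C#1 and left of it with Si-KDM4C#2.

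Compared directly, Si-KDM4C#2 gave lower levels than Si-KDM4C#1 for 27 of the 29 genes and higher levels for TNFRSF10B and RRM2B, where 35.9% of all genes were higher and 26.5% lower. Past the fold limit, 13 genes were lower and 0 higher in limma-trend, against 4.41% of all genes higher and 2.49% lower. Without that limit, 2 genes were higher, at an adjusted as well as an unadjusted p under 0.05. In limma voom, 0 were higher past the fold limit, and RRM2B also lost its call at 0.05 (adjusted p = 0.506). The median log2 difference of the 29 genes was -0.87, beside 0.08 over all genes.

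**Figure D2:**
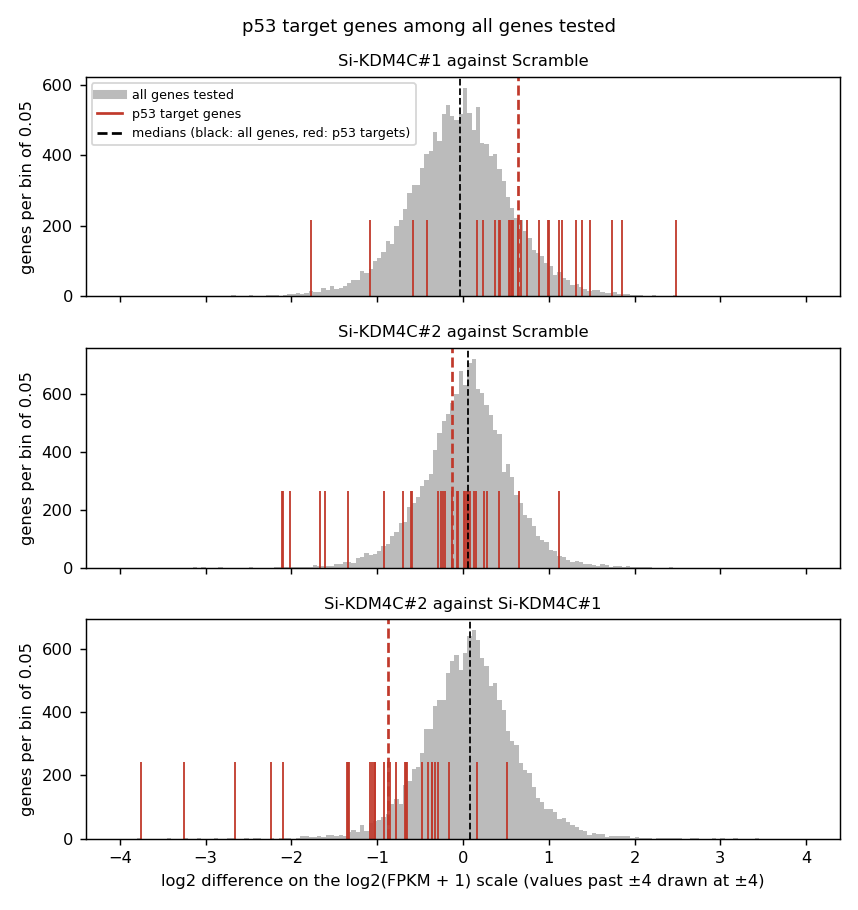
Number of genes in bins of 0.05 (y axis) by log2 difference on the log2(FPKM + 1) scale (x axis) for all 14363 genes tested (grey), with the 29 p53 targets as red lines and the medians dashed, in 1 panel per comparison. The red median lies at 0.64 with Si-KDM4C#1 against Scramble, at -0.13 with Si-KDM4C#2 against Scramble and at -0.87 between the siRNAs.

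GDF15, the secreted cytokine, had the widest separation of the siRNAs among these genes. Its gene lies at chromosome 19, 18374731 to 18389176, on the plus strand (GENCODE 29, GRCh38). It stood at 81.6, 72.5 and 78.9 FPKM with Scramble, at 220, 271 and 297 with Si-KDM4C#1 and at 17.9, 19.1 and 18.3 with Si-KDM4C#2. All Si-KDM4C#1 libraries were above and all Si-KDM4C#2 libraries below the Scramble libraries, with no overlap. GDF15 rose 3.38-fold in mean FPKM with Si-KDM4C#1 (77.7 ± 4.66 to 263 ± 38.8 FPKM, SD, n = 3; log2 difference 1.74, SE 0.0946, adjusted p = 2.74e-07). With Si-KDM4C#2 it was 4.22-fold lower (18.4 ± 0.581 FPKM; log2 difference -2.02, adjusted p = 2.06e-07). The siRNAs themselves differed 14.3-fold (log2 difference -3.75, adjusted p = 6.2e-09). The match to the p53 element printed above sits just after a GDF15 start and had 3 mismatches.

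Among the targets that arrest the cell cycle, all 6 rose with Si-KDM4C#1, beside 31.7% of all genes tested. With Si-KDM4C#2, BTG2 rose, CDKN1A and CCNG1 fell and 3 did not pass, beside 34.4% of all genes higher and 25.0% lower. CDKN1A encodes p21, the inhibitor of cyclin-dependent kinases, and had the highest FPKM of these genes with Scramble. It stood at 218, 205 and 199 FPKM with Scramble, at 417, 476 and 500 with Si-KDM4C#1 and at 48.3, 49.2 and 46.0 with Si-KDM4C#2. As for GDF15, the groups did not overlap and Scramble lay between the siRNAs. CDKN1A rose 2.24-fold with Si-KDM4C#1 (log2 difference 1.16, SE 0.0659, adjusted p = 3.63e-07; 0.9953 and just under the fold limit after an adjustment for GC content) and was 4.34-fold lower with Si-KDM4C#2 (-2.09, adjusted p = 3.51e-08). Its mean differed 9.71-fold between the siRNAs (-3.25, adjusted p = 2.12e-09).

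GADD45A, which binds cell cycle and repair proteins after stress, rose with Si-KDM4C#1 and did not pass with Si-KDM4C#2. Its values were 14.7, 13.0 and 11.9 FPKM with Scramble, 33.2, 36.3 and 38.7 with Si-KDM4C#1, and then 12.4, 14.3 and 14.6 with Si-KDM4C#2. The Si-KDM4C#1 libraries stood apart, and the others overlapped. The log2 difference was 1.39 with Si-KDM4C#1 (adjusted p = 6.82e-07) and 0.06 with Si-KDM4C#2 (adjusted p = 0.595), and the siRNAs differed by -1.33 (adjusted p = 1.18e-06). BTG2, an antiproliferative gene, stood at 11.8, 10.3 and 10.8 FPKM with Scramble, at 27.5, 28.997 and 29.7 with Si-KDM4C#1 and at 19.0, 16.7 and 17.7 with Si-KDM4C#2. BTG2 was above Scramble in all 6 libraries with a KDM4C siRNA, by 1.32 (adjusted p = 1.09e-07) and 0.65 (adjusted p = 1.49e-05). CCNG1, cyclin G1, was opposite in the siRNAs, with 86.7, 88.5 and 89.6 FPKM in Scramble, 115, 119 and 124 with Si-KDM4C#1, and then 57.9, 58.2 and 58.5 with Si-KDM4C#2. Its groups did not overlap, and it rose by 0.43 (adjusted p = 3.41e-06) with the first and fell by 0.59 (adjusted p = 8.01e-07) with the second siRNA. The polo-like kinases PLK2 and PLK3 rose by 0.53 and 0.58 with Si-KDM4C#1 (adjusted p = 1.8e-05 and 0.000304). With Si-KDM4C#2 they differed from Scramble by 0.13 and -0.21 (adjusted p = 0.0726 and 0.0697).

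The feedback genes of p53 are MDM2, the ubiquitin ligase that marks p53, and PPM1D, the phosphatase WIP1 that switches off the damage kinases. MDM2 stood at 11.3, 11.1 and 10.4 FPKM with Scramble, at 20.6, 23.1 and 24.1 with Si-KDM4C#1 and at 2.70, 3.10 and 2.47 with Si-KDM4C#2. The groups did not overlap, and the order was that of GDF15 and CDKN1A. MDM2 rose by 0.99 with Si-KDM4C#1 (SE 0.0754, adjusted p = 2.36e-06), just under the fold limit on this scale, and 2.07-fold in mean FPKM; without Scramble replicate 1 or Si-KDM4C#1 replicate 1 it passed that limit (1.01 and 1.05). It was 3.96-fold lower with Si-KDM4C#2 (-1.67, adjusted p = 1.73e-07) and 8.21-fold lower there than with Si-KDM4C#1 (-2.65, adjusted p = 1.17e-08). PPM1D had group means of 12.6 ± 0.514, 15.0 ± 0.786 and 11.5 ± 0.522 FPKM (SD, n = 3) in the order Scramble, Si-KDM4C#1, Si-KDM4C#2. It rose by 0.23 with Si-KDM4C#1 (adjusted p = 0.0032), and its difference of -0.13 with Si-KDM4C#2 had an adjusted p of 0.059.

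**Figure D3:**
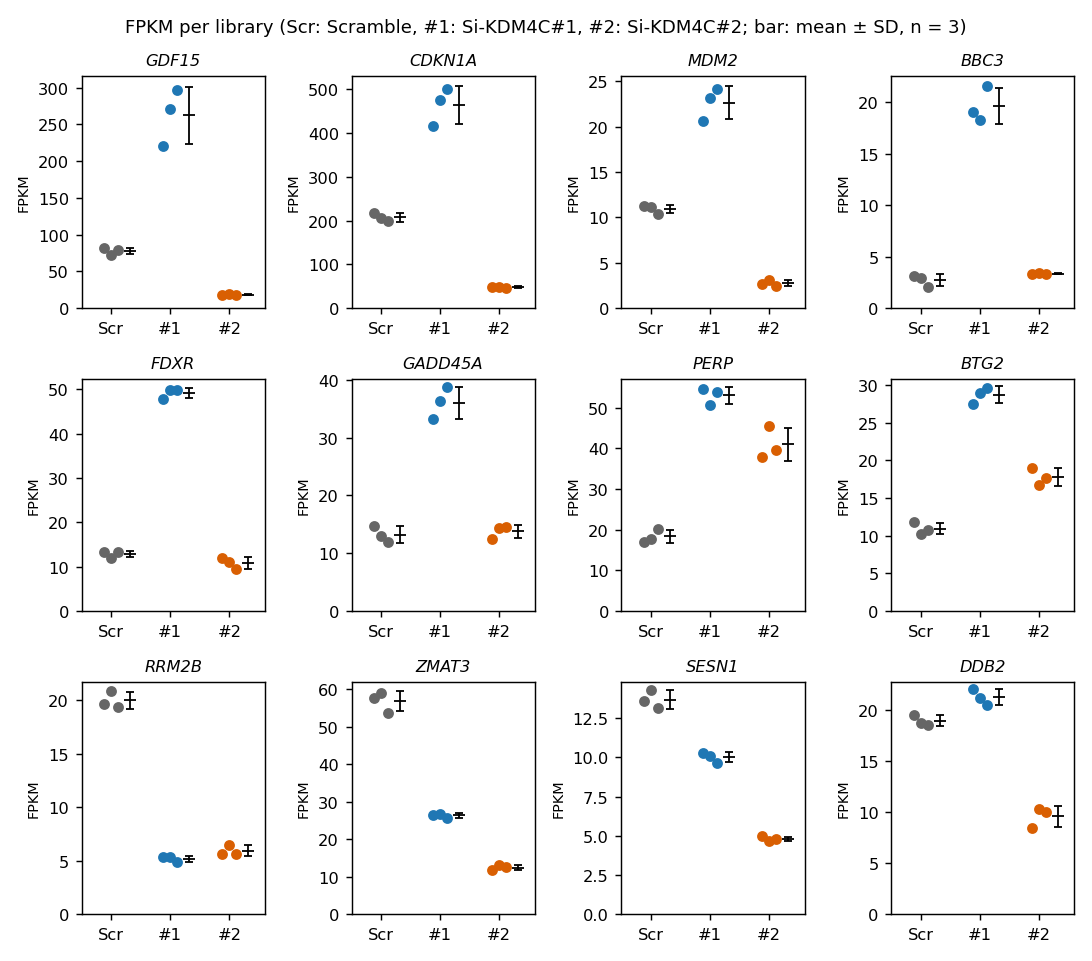
FPKM per library (y axis, from 0) in the Scramble (Scr), Si-KDM4C#1 (#1) and Si-KDM4C#2 (#2) groups (x axis) for 12 p53 targets, with points for libraries and bars for mean ± SD (n = 3). GDF15, CDKN1A and MDM2 are highest with #1 and lowest with #2, BBC3, FDXR and GADD45A are high with #1 alone, and RRM2B and ZMAT3 are low with both.

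Of the 9 tested genes that act in cell-internal death signalling, 9 rose with Si-KDM4C#1, beside 31.7% of all genes tested. With Si-KDM4C#2, PERP and PIDD1 rose, PHLDA3 fell and 6 did not pass, beside 34.4% of all genes higher and 25.0% lower. BBC3 encodes PUMA, a BH3-only protein that starts mitochondrial apoptosis. It stood at 3.15, 2.91 and 2.07 FPKM with Scramble, at 19.1, 18.3 and 21.6 with Si-KDM4C#1 and at 3.33, 3.44 and 3.30 with Si-KDM4C#2. The Si-KDM4C#1 libraries were far above the others, and those of Si-KDM4C#2 were just above Scramble without overlap. BBC3 rose 7.26-fold with Si-KDM4C#1 (log2 difference 2.49, SE 0.106, adjusted p = 6.68e-08), the largest increase among these genes. Its difference with Si-KDM4C#2 was 0.24 (adjusted p = 0.0738), and without Scramble replicate 1 it passed at 0.33 (adjusted p = 0.0253). Between the siRNAs BBC3 differed 5.86-fold (-2.24, adjusted p = 1.58e-07).

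PERP, a membrane protein of desmosomes and apoptosis, rose past the fold limit with each siRNA. Its values were 17.1, 17.7 and 20.3 FPKM with Scramble, 54.6, 50.6 and 53.9 with Si-KDM4C#1, and then 37.9, 45.6 and 39.7 with Si-KDM4C#2. No group overlapped another, and the log2 differences from Scramble were 1.49 (adjusted p = 2.24e-07) and 1.12 (adjusted p = 2.3e-06). CDIP1, a mediator of p53-dependent apoptosis, stood at 14.5, 12.8 and 14.0 FPKM with Scramble, at 27.5, 31.4 and 34.4 with Si-KDM4C#1 and at 14.8, 15.0 and 14.0 with Si-KDM4C#2. AEN, a nuclease induced in apoptosis, followed the same order with 17.1, 14.4 and 14.8 FPKM, then 30.4, 32.5 and 32.3, then 16.5, 13.7 and 14.1. For CDIP1 and AEN alike, Scramble and Si-KDM4C#2 overlapped. CDIP1 rose by 1.11 (adjusted p = 1.17e-06) and AEN by 1.00 (adjusted p = 3.12e-06), with Si-KDM4C#1. AEN was just under the fold limit before rounding and passed it without Scramble replicate 1 or Si-KDM4C#1 replicate 1 (1.07 and 1.03), and CDIP1 missed it under quantile normalization (0.98) and the GC adjustment (0.94). With Si-KDM4C#2 they differed from Scramble by 0.08 (adjusted p = 0.417) and -0.06 (adjusted p = 0.553).

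PHLDA3, an inhibitor of AKT signalling, stood at 27.8, 25.0 and 26.2 FPKM with Scramble, at 41.0, 47.5 and 45.7 with Si-KDM4C#1 and at 17.8, 17.2 and 15.8 with Si-KDM4C#2. It had the opposed pattern without overlap, with differences of 0.74 (adjusted p = 6.28e-06) and -0.61 (adjusted p = 3.44e-05). BAX, the pore-forming effector of mitochondrial apoptosis, had means of 27.0 ± 1.36, 50.9 ± 3.59 and 27.3 ± 0.938 FPKM (SD, n = 3) in the group order above. BAX rose by 0.89 with Si-KDM4C#1 (adjusted p = 7.69e-07). Its difference with Si-KDM4C#2 was 0.02 (adjusted p = 0.82), which became -0.21 (adjusted p = 0.00754) with the GC adjustment. TP53I3 and TRIAP1 rose by 0.64 and 0.68 with Si-KDM4C#1 (adjusted p = 0.000201 and 1.3e-06), and with Si-KDM4C#2 their adjusted p were 0.173 and 0.635. PIDD1, the scaffold of the PIDDosome, rose by 0.57 (adjusted p = 3.4e-05) and 0.28 (adjusted p = 0.00432), and the second became -0.11 (adjusted p = 0.188) with the GC adjustment.

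The death receptors moved unequally. FAS, the receptor of FAS ligand, had group means of 7.23 ± 0.338, 11.1 ± 1.29 and 5.71 ± 0.151 FPKM (SD, n = 3), with differences from Scramble of 0.55 (adjusted p = 0.000109) and -0.29 (adjusted p = 0.00679). The second had an adjusted p of 0.0536 with the GC adjustment. The paralogous TRAIL receptors TNFRSF10A and TNFRSF10B differed in direction with Si-KDM4C#1, where TNFRSF10A rose by 0.38 (adjusted p = 0.00164) and TNFRSF10B fell by 0.58 (adjusted p = 1.62e-05). Neither passed with Si-KDM4C#2 (0.05, adjusted p = 0.578, and -0.07, adjusted p = 0.35). Reads shared by these similar genes could be counted for either. EDA2R, the ectodysplasin A2 receptor, and TP53INP1, a promoter of autophagy and cell death, were under the limit of 1 FPKM and were not tested. EDA2R had means of 0.496 ± 0.066, 0.442 ± 0.0689 and 0.218 ± 0.0853 FPKM, from 86, 77 and 38 fragments in all. TP53INP1 rested on 16, 14 and 7 fragments and stayed at 0.0997 FPKM or less in every library.

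The DNA repair targets had no common direction. RRM2B, the p53-inducible subunit of ribonucleotide reductase, stood at 19.7, 20.9 and 19.4 FPKM with Scramble, at 5.32, 5.31 and 4.87 with Si-KDM4C#1 and at 5.64, 6.50 and 5.64 with Si-KDM4C#2. All 6 libraries with a KDM4C siRNA lay below Scramble. RRM2B was 3.87-fold lower with Si-KDM4C#1 (-1.77, SE 0.0611, adjusted p = 2.07e-08) and 3.38-fold lower with Si-KDM4C#2 (-1.60, adjusted p = 6.98e-08). The siRNAs differed by 0.17 (adjusted p = 0.038), and this call was lost under 5 of the 8 other settings (adjusted p of 0.0653 to 0.939) and when any Si-KDM4C#1 library or Si-KDM4C#2 replicate 2 was left out (0.0506 to 0.132). DDB2, the damage sensor of nucleotide excision repair, stood at 19.6, 18.7 and 18.5 FPKM with Scramble, at 22.1, 21.2 and 20.5 with Si-KDM4C#1 and at 8.41, 10.3 and 10.0 with Si-KDM4C#2. DDB2, whose window held the match without mismatches, thus had its lowest values with Si-KDM4C#2, where it fell by 0.92 (adjusted p = 2.91e-06). Its difference of 0.16 with Si-KDM4C#1 had an adjusted p of 0.061, which ran from 0.000939 to 0.837 under other settings. XPC, which recognises damaged DNA, rose by 0.58 (adjusted p = 8.81e-06) and 0.42 (adjusted p = 0.000115). POLH, a translesion polymerase, rose by 0.43 with Si-KDM4C#1 (adjusted p = 0.000131) and fell by 0.25 with Si-KDM4C#2 (adjusted p = 0.00438).

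Among the metabolic targets, FDXR, the mitochondrial ferredoxin reductase, stood at 13.2, 12.02 and 13.3 FPKM with Scramble, at 47.8, 49.7 and 49.8 with Si-KDM4C#1 and at 12.05, 10.9 and 9.36 with Si-KDM4C#2. The Si-KDM4C#1 libraries were high, and the highest Si-KDM4C#2 library just overlapped the lowest Scramble library. FDXR rose 3.83-fold with Si-KDM4C#1 (1.86, SE 0.077, adjusted p = 5.85e-08). It fell by 0.24 with Si-KDM4C#2 (adjusted p = 0.0243), a call that was lost without Scramble replicate 1 (adjusted p = 0.066), Scramble replicate 3 (0.0735) or Si-KDM4C#2 replicate 3 (0.0664), without a filter on low values (0.0639) and with the 6 libraries of the comparison alone (0.0523). SESN1, a stress-induced inhibitor of mTORC1, stood at 13.6, 14.3 and 13.2 FPKM, at 10.3, 10.1 and 9.66, and at 4.95, 4.68 and 4.78 in the same order of groups. SESN1 fell by 0.42 (adjusted p = 3.24e-05) and by 1.34 (adjusted p = 5.1e-08), with no overlap. TIGAR, a phosphatase that lowers glycolysis, stood at 6.66, 6.29 and 6.41 FPKM with Scramble, at 9.62, 11.6 and 10.7 with Si-KDM4C#1 and at 3.77, 3.68 and 3.30 with Si-KDM4C#2. It had the opposed pattern without overlap, with differences of 0.64 (adjusted p = 2.74e-05) and -0.70 (adjusted p = 2.18e-05).

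ZMAT3, a zinc finger protein that binds RNA, stood at 57.8, 59.1 and 53.8 FPKM with Scramble, at 26.4, 26.8 and 25.7 with Si-KDM4C#1 and at 11.7, 13.0 and 12.5 with Si-KDM4C#2. It fell in both comparisons, by 1.08 (SE 0.0497, adjusted p = 9.96e-08) and by 2.11 (adjusted p = 6.89e-09), and the groups did not overlap. After the GC adjustment, its difference with Si-KDM4C#1 missed the fold limit (-0.84). Of the 31 listed genes, 13 share exon bases with a gene on the other strand, among them CDKN1A, MDM2, BBC3, PIDD1, FAS, XPC and SESN1, and 4 with a gene on their own strand. For PIDD1 the genes on the other strand are PANO1 and RPLP2. The labels name a library kit but not whether counting used strand, so reads of such neighbours cannot be told apart.

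Of 24 genes of the p53 family or that act on p53, 22 were tested. After Si-KDM4C#1, 4 rose and 15 fell (median -0.29), whereas after Si-KDM4C#2, 6 rose and 6 fell (median -0.01). These were 18.2% higher and 68.2% lower, beside 31.7% and 33.9% of all genes, and 27.3% in each direction, near the 34.4% and 25.0% of all genes. CDKN2A, which encodes the MDM2 inhibitor p14ARF besides p16, had means of 28.6 ± 1.13, 81.4 ± 3.02 and 48.7 ± 3.33 FPKM (SD, n = 3). It rose by 1.48 (adjusted p = 2.87e-08) and 0.75 (adjusted p = 2.86e-06). RPL11, a ribosomal protein that can bind MDM2, rose by 1.27 (adjusted p = 1.52e-07) and 0.85 (adjusted p = 3.11e-06). MDM4, the MDM2 relative that masks p53, fell by 0.50 (adjusted p = 0.000107) and 0.24 (adjusted p = 0.0113). TP53BP2, which encodes ASPP2, a partner of p53 at death genes, separated the siRNAs. Its values were 12.7, 12.6 and 13.9 FPKM with Scramble, 3.90, 3.89 and 3.12 with Si-KDM4C#1, and then 13.1, 13.0 and 12.7 with Si-KDM4C#2. It fell by 1.61 with Si-KDM4C#1 (adjusted p = 8.17e-08), and its difference with Si-KDM4C#2 was -0.01 (95% interval -0.17 to 0.15, adjusted p = 0.887).

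**Figure D4:**
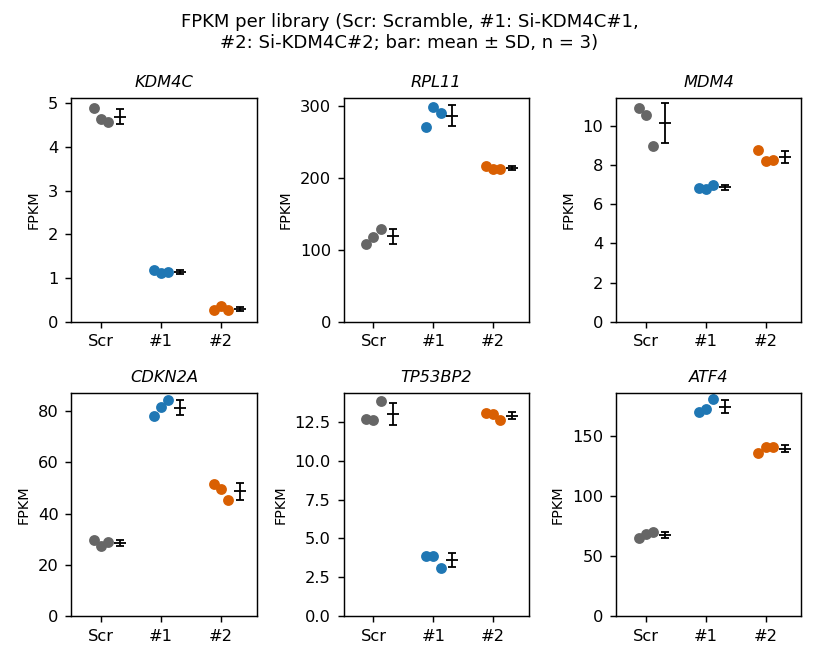
FPKM per library (y axis, from 0) of KDM4C, RPL11, MDM4, CDKN2A, TP53BP2 and ATF4 in the Scramble (Scr), Si-KDM4C#1 (#1) and Si-KDM4C#2 (#2) groups (x axis), with points for libraries and bars for mean ± SD (n = 3). RPL11, CDKN2A and ATF4 are above Scramble with both siRNAs, and TP53BP2 is low with #1 alone.

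A wider list held 46 further genes described as raised by p53, of which 39 were tested. Of these, 22 rose and 9 fell after Si-KDM4C#1 (median 0.22). After Si-KDM4C#2, 6 rose and 23 fell (median -0.32), and between the siRNAs 26 were lower and 6 higher with Si-KDM4C#2 (median -0.54). As shares of those tested, 56.4% rose and 23.1% fell with the first siRNA, beside 31.7% and 33.9% of all genes, and 15.4% rose and 59.0% fell with the second, beside 34.4% and 25.0%. Between the siRNAs, 66.7% were lower and 15.4% higher with Si-KDM4C#2, beside 26.5% and 35.9% of all genes. TRAF4, a signalling adaptor, rose by 1.22 (adjusted p = 5.34e-08) and 0.32 (adjusted p = 0.000434). ACER2, a ceramidase, fell by 0.99 (adjusted p = 8.88e-06) and 1.56 (adjusted p = 8.17e-07). ASCC3, a helicase of alkylation repair, fell by 0.74 (adjusted p = 1.57e-05) and 1.33 (adjusted p = 6.11e-07). PRDM1, a transcriptional repressor, fell by 1.17 (adjusted p = 5.5e-08) and 0.79 (adjusted p = 1e-06).

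Genes of the ATF4 response were listed as well. Of 15 tested genes, 14 rose and 1 fell with Si-KDM4C#1 (median 1.26), and 9 rose and 2 fell with Si-KDM4C#2 (median 0.42). The shares that rose were 93.3% and 60%, beside 31.7% and 34.4% of all genes, and those that fell were 6.67% and 13.3%, beside 33.9% and 25.0%. ATF4 itself stood at 65.1, 68.1 and 70.1 FPKM with Scramble, at 171, 173 and 181 with Si-KDM4C#1 and at 136, 141 and 141 with Si-KDM4C#2. It rose 2.58-fold (1.35, adjusted p = 1.06e-08) and 2.06-fold (1.03, adjusted p = 6.53e-08). All 6 libraries with a KDM4C siRNA lay above Scramble for ATF4, and the part of ATF4 in the GDF15 values was not tested. TRIB3, a pseudokinase induced by ATF4, rose by 2.47 and 1.93 (adjusted p = 5.59e-10 and 3.17e-09). PSAT1 of serine synthesis rose by 2.09 and 1.60 (adjusted p = 9.11e-10 and 5.13e-09), and NUPR1, a stress-induced chromatin protein, by 2.05 and 1.63 (adjusted p = 1.06e-08 and 5.45e-08). DDIT3, which encodes CHOP, rose by 1.03 with Si-KDM4C#1 (adjusted p = 0.000123) and differed by 0.20 with Si-KDM4C#2 (adjusted p = 0.234). CHAC1, a glutathione-degrading enzyme, rose by 1.98 (adjusted p = 5.52e-07) and 0.56 (adjusted p = 0.00308), the second with an adjusted p of 0.0681 after the GC adjustment.

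p21 lowers many cell cycle genes through the DREAM complex, and 20 of them, most but not all mitotic, were listed and tested. With Si-KDM4C#2, 19 (95%) rose and 1 (5%) fell (median 0.63), beside 34.4% and 25.0% of all genes. With Si-KDM4C#1, 8 (40%) rose, 6 (30%) fell and 6 did not pass (median 0.07), which is near the 31.7% and 33.9% of all genes. TOP2A, topoisomerase II alpha, had means of 69.9 ± 2.52, 25.6 ± 1.44 and 98.7 ± 2.71 FPKM (SD, n = 3). It fell by 1.41 with Si-KDM4C#1 (adjusted p = 1.81e-08) and rose by 0.49 with Si-KDM4C#2 (adjusted p = 1.68e-05). Other mitotic genes rose with both: CENPA, the centromeric histone, by 0.93 and 1.42 (adjusted p = 4.32e-06 and 5.23e-07), BIRC5, which encodes survivin, by 0.96 and 1.37 (adjusted p = 1.75e-08 and 6.15e-09), and AURKB, the mitotic kinase, by 1.18 and 1.29 (adjusted p = 2.13e-07 and 2.35e-07).

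**Figure D5:**
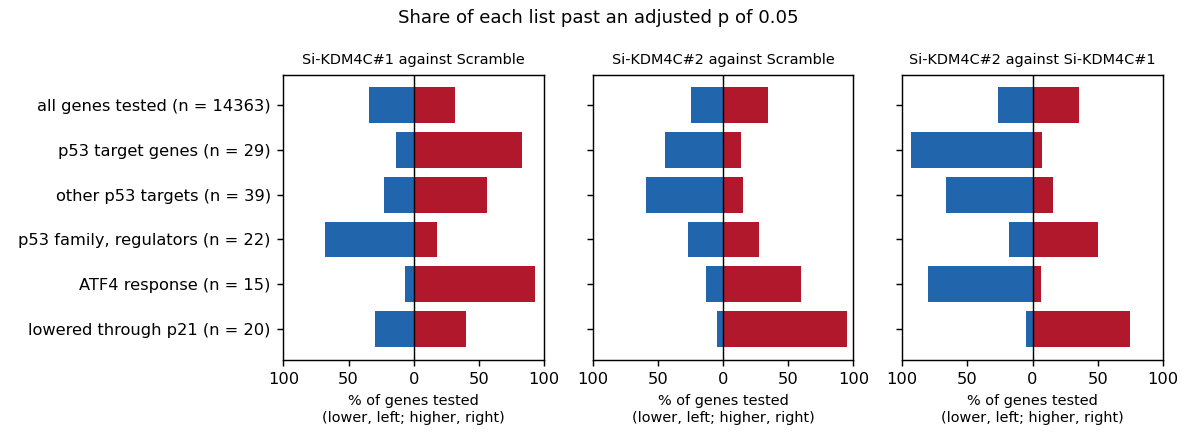
Share of the genes tested in each list (x axis, percent, lower to the left in blue and higher to the right in red) past an adjusted p of 0.05, by list (y axis, with the number tested) and in 1 panel per comparison. The p53 targets reach 82.8% higher with Si-KDM4C#1, 44.8% lower with Si-KDM4C#2 and 93.1% lower between the siRNAs, beside 31.7%, 25.0% and 26.5% of all genes tested.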

How the data were processed

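RNA of 9 Huh7 libraries was sequenced; the deposited values are the authors' FPKM, with 1 table for each library. The submitters' processing notes name FastQC 0.11.5, HISAT2 2.1.0, StringTie 1.3.3b, featureCounts, DESeq 1.28.0 and GRCh38, without roles. Groups came from the treatment labels. Whole fragments were recovered from FPKM, GENCODE 29 exon lengths and a fitted total per library (tolerance 0.05); they gave depth and alternatives only. Genes with a group mean of at least 1 FPKM in any group (14363) were compared on log2(FPKM + 1) with limma-trend (limma 3.58.1, R 4.3.3), 9 libraries in 1 fit without covariates, Benjamini-Hochberg adjustment, and limits of FDR 0.05 and fold 2 as in the study. The test was checked on simulated data, where it recovered 97% of 200 genes planted at 4-fold with Si-KDM4C#1 against Scramble and 98.5% with Si-KDM4C#2, among 13599 genes. False calls were 5 and 4. All other genes were left unchanged and the spread was fixed, so the check does not cover changes near the fold limit of 2. Members and lists were chosen with earlier results of these data known. Library values are given for GDF15, CDKN1A, MDM2 and members past both limits in any comparison, and other lists name up to 4 of the largest changes past both limits, with MDM4, ATF4 and DDIT3 named whatever their result; library values of TP53BP2 and ATF4 were added after seeing them, and 1 gene under that rule is not reported here. Alternatives were other normalizations, pseudocounts, filters, sample sets and a replicate block and, chosen after seeing the data, limma voom on recovered fragments and a GC adjustment (lowess, span 0.3). Plots used Python 3.11.15 and matplotlib 3.10.9.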

Additional observations from a re-analysis of the deposited data

Results flagged for a closer look

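For 13 of the 29 tested p53 targets, the effect of the siRNAs differed in the direct comparison of Si-KDM4C#2 with Si-KDM4C#1, past an adjusted p of 0.05 (limma-trend) and a fold of 2, with lower levels for Si-KDM4C#2 in each. Past the same limits, 2.49% of all 14363 genes tested were lower and 4.41% higher. The log2 differences were -3.75 for GDF15, -3.25 for CDKN1A, -2.65 for MDM2, -2.24 for BBC3 and -2.09 for FDXR. They were -1.35 for PHLDA3, -1.34 for TIGAR, -1.33 for GADD45A, -1.08 for DDB2, -1.06 for AEN, -1.04 for CDIP1, -1.03 for ZMAT3 and -1.02 for CCNG1. CCNG1 and CDIP1 missed the fold limit without Si-KDM4C#1 replicate 3 (-0.9967 and -0.96), and DDB2 and ZMAT3 without Si-KDM4C#2 replicate 1 (-0.999 and -0.99). CCNG1 also missed it under quantile normalization (-0.96). Under limma voom, PLK3 (-1.06), BAX (-1.02), FAS (-1.08) and SESN1 (-1.19) passed it too. SESN1 also passed with a pseudocount of 0.1 (-1.04) and with the GC adjustment (-1.02). Groups of 3 libraries were too small to be searched for single libraries that stand apart.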

How the results depend on the processing

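Over 8 other settings, 675 of 696 log2 differences of the tested genes kept their side of the 0.05 threshold, and so did 767 of 783 with 1 library left out. Of these, the differences past the threshold kept their direction, while those that did not pass could change sign. The totals include fits in which only the p-value could change. Changes of the filter, the 6 libraries of the comparison and the replicate block leave each log2 difference as it was. Leaving out a library of the group that a comparison does not use does the same. With Si-KDM4C#2 against Scramble, BBC3 ran from -0.2381 to 0.3191 over the other settings, and AEN from -0.1365 to 0.0143 with a library left out. With a library left out, 0 differences that passed in either fit reversed. With Si-KDM4C#2 against Scramble, the GC adjustment turned BAX to -0.21 and PIDD1 to -0.11; the cause was not tested. It also left 1 of the 2 genes that fell past the fold limit with Si-KDM4C#1. RRM2B lost its difference between the siRNAs under quantile normalization, without a filter, with the 6 libraries of the comparison, with limma voom and with the GC adjustment, leaving 1 gene higher with Si-KDM4C#2 in place of 2. Without 1 library, that count ran from 1 to 2 and the 27 lower from 26 to 27, of which 11 to 13 passed the fold limit. Past that limit and without 1 library, 8 to 10 genes rose and 2 fell with Si-KDM4C#1, and 1 rose and 6 fell with Si-KDM4C#2. Under quantile normalization, limma voom and the GC adjustment, DDB2 also fell past it with Si-KDM4C#2 (-1.05, -1.05 and -1.02). Calls also changed for XPC between the siRNAs (adjusted p of 0.0614 without Si-KDM4C#1 replicate 1, 0.0849 without replicate 2 and 0.0985 without Si-KDM4C#2 replicate 3), DDB2 with Si-KDM4C#1 (0.0104 without Si-KDM4C#2 replicate 1) and, with Si-KDM4C#2, PLK3 (0.0122 without Si-KDM4C#2 replicate 3), PPM1D (0.0399 without the same library, 0.0451 without Si-KDM4C#1 replicate 1) and TNFRSF10B (0.0404 without Scramble replicate 3). These last genes also passed, as lower with Si-KDM4C#2, under quantile normalization and limma voom. The adjusted p were 0.0325 and 0.0203 for PLK3, 0.0075 and 0.0107 for PPM1D, and 0.01 and 0.0404 for TNFRSF10B. PLK3 passed with the GC adjustment too (0.00147).

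A split of all genes called higher and lower moved with scaling: 373 and 330 with Si-KDM4C#2 against Scramble became 238 and 376 with the GC adjustment, and 634 and 358 between the siRNAs became 458 and 406 under quantile normalization and 490 and 456 with the GC adjustment. A pseudocount of 0.1 gave 1327 and 610 between the siRNAs. Libraries of the same number had no large shared deviation (mean correlation 0.016 over 9 pairs). The labels do not say whether the numbers pair them, and this correlation cannot decide it. With a replicate block, 8 and 2 genes passed the fold limit higher and lower with Si-KDM4C#1, 1 and 6 with Si-KDM4C#2 and 0 and 13 between the siRNAs, and PPM1D passed with Si-KDM4C#2 (adjusted p = 0.0425). The block leaves the log2 differences unchanged, so it could alter these counts only through the p-values.

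Depth limits TP53INP1 and EDA2R, which rest on 86 fragments per group or fewer, and intervals cover the spread of 3 libraries per group.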
